A study of Mus musculus with 8 samples.

Results

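The genes described here encode the plasminogen activators and the proteins that hold or oppose them: Plat (tissue-type plasminogen activator, tPA), Plau (urokinase, uPA), Plaur (the urokinase receptor, uPAR), Serpine2 (protease nexin-1) and Serpinb5 (maspin). Members were all probe sets that the platform annotation assigns to 1 of these genes alone. The rule found 9 of the 45101 probe sets, 2 for Plat, 2 for Plau, 1 for Plaur and 4 for Serpinb5, so that 4 of the 5 genes were measured among the 18194 genes with such a probe set. Serpine2 was not analysed here because the annotation used pairs no probe set with it. Of the 9 probe sets, 7 had a mean signal over all arrays at or above the 40th percentile of all probe sets, a log2 signal of 5.20. Both Plau probe sets lay under it, so Plau is described and was not tested.

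The samples were small intestinal tissue of C57BL/6 mice on 8 expression arrays, 2 in each of 4 groups. All mice carried 1 mutant Apc allele, Apc(Min/+), which causes intestinal adenomas, and 2 loxP-flanked Spint1 alleles. Spint1 encodes hepatocyte growth factor activator inhibitor type 1 (HAI-1), a membrane-anchored Kunitz-type inhibitor of serine proteases such as matriptase and hepsin. Control mice, Apc (Min/+)/Spint1 (flox/flox), kept HAI-1. HAI-1 deficient mice carried Vil-Cre in addition, a Cre recombinase under the villin promoter, which acts in intestinal epithelial cells only, so that other cells of the tissue kept an intact Spint1 gene. From each genotype there were 2 arrays of non-tumour mucosa and 2 arrays of tumours. Ages were not given, and nothing in the labels says whether the 2 arrays of a group came from separate mice, so p-values measure only the spread between these samples.

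As background, tPA and uPA are serine proteases that cut plasminogen, a plasma protein made mainly by the liver, into plasmin, which dissolves fibrin and degrades extracellular matrix. tPA works best bound to fibrin and is typically released by endothelial cells, whereas uPA works at cell surfaces where uPAR, a lipid-anchored receptor, holds it. Protease nexin-1 is a serpin that traps both activators. Maspin belongs by sequence to the same serpin superfamily but does not inhibit proteases in the way that other serpins do, and it is known from mammary, gastric and stratified epithelia.

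Of the measured members, Plaur and Serpinb5, the receptor and the serpin, had a promoter entry among the RefSeq sequences (GRCm38.p6). Plat and Plau had none, so the choice was set by the entries and not by expression. The promoter windows of Plaur and Serpinb5 are shown on the plus strand. They run from 250 bases before to 50 after the start site that the RefSeq promoter entry uses. The Plaur window lies at chr7:24462233-24462532 and the Serpinb5 window at chr1:106860925-106861224. The Serpinb5 window spans the outermost annotated start of the gene, whereas the Plaur window lies inside the annotated span of its gene, downstream of the outermost start. Capitals mark matches to TGANTCA, where N is any base, and to GGGCGG, a GC box, searched on both strands. TGANTCA is a looser pattern than the AP-1 element. The match reads TGACTCA in Plaur and TGAATCA in Serpinb5, so the Serpinb5 match is not named an AP-1 element.
Plaur promoter: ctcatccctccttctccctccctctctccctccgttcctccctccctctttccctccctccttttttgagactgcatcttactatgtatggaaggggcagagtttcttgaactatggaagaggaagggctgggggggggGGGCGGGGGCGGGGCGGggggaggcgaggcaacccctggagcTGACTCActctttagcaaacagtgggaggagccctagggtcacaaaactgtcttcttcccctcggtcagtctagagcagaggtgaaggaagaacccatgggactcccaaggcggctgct
Serpinb5 promoter: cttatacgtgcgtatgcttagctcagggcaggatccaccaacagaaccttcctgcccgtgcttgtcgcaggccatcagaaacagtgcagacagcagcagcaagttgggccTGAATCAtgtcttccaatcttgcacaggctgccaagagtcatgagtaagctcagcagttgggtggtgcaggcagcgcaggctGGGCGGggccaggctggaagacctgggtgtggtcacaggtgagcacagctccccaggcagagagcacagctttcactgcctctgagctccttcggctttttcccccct
In Plaur, TGANTCA stood at bases -69 to -63, counted from the start site of the promoter entry, and GGGCGG at -111 to -106, -105 to -100 and -100 to -95, the last pair overlapping by 1 base. In Serpinb5, counted the same way, TGANTCA stood at -140 to -134 and GGGCGG at -58 to -53. TGANTCA was found in 2565 of 32851 promoters of the same length (7.81%) and GGGCGG in 11714 of them (35.7%). A match is a description of the letters and not a measured binding site. On the same build the genes lie at chr8:22757722-22782848 (Plat), chr14:20836662-20843388 (Plau), chr7:24460937-24475970 (Plaur), chr1:79794317-79858665 (Serpine2) and chr1:106861175-106883348 (Serpinb5).

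Arrays of 1 group correlated at r of 0.947 to 0.968 over the genes tested, arrays of the same tissue but other genotype at 0.915 to 0.976, and mucosa with tumours at 0.830 to 0.920. The genotypes of a tissue were thus not set apart by these correlations. The poly-A spike-in controls split the arrays: their mean log2 signal was 7.15 to 7.74 on the second array of control mucosa, of HAI-1 deficient mucosa and of HAI-1 deficient tumours, and 5.85 to 6.48 on the other 5. The second array of control tumours stood apart in its Gapdh ratio, where the 3' control read 25.9 times the 5' control (0.803 to 1.77 times on the other arrays). The same ratio for beta-actin was 2.32 there and 1.15 to 1.52 on the other arrays. Whether the RNA of that array was degraded was not tested. Summed signal of 9 epithelial markers, such as Epcam and Vil1, ran from 166233 to 195903 over all arrays. Spint1 itself had a log2 signal of 12.87 and 13.00 in control mucosa, 12.46 and 12.25 in HAI-1 deficient mucosa, 12.75 and 13.06 in control tumours, and 11.76 and 11.84 in HAI-1 deficient tumours. It was lower on both deficient arrays of each tissue, and neither difference was called (limma, Benjamini-Hochberg adjusted p = 0.271 in mucosa and 0.779 in tumours). The position of its probe set relative to the deleted part of the gene was not given.

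Plat had the widest range of the 3 probe sets tested. On its brighter probe set the log2 signal was 8.05 and 8.30 in control mucosa, 10.53 and 10.95 in HAI-1 deficient mucosa, 11.70 and 12.23 in control tumours, and 11.98 and 13.17 in HAI-1 deficient tumours. The groups thus stood in the order control mucosa, deficient mucosa, control tumours, deficient tumours, and only the tumour groups overlapped. The step between deficient mucosa and control tumours was not among the comparisons tested.

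In non-tumour mucosa Plat rose with HAI-1 loss by 2.56 ± 0.42 (log2, SE, n = 2 per group), or 5.91-fold (limma over 13119 genes, Benjamini-Hochberg adjusted p = 0.0448). The 95% confidence interval of the log2 difference ran from 1.58 to 3.55, and 0.686% of genes tested had a larger difference. The difference was 2.48 between the arrays of low and 2.65 between those of high spike-in signal. The call was lost when arrays were quantile normalized (adjusted p = 0.0756), and without either array of control mucosa (0.149 and 0.113), of deficient mucosa (0.129 and 0.196) or of control tumours (0.0724 and 0.0719), with log2 differences of 2.36 to 2.77 throughout.

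In control mice Plat rose from mucosa to tumours by 3.79 ± 0.42 on the log2 scale, or 13.8-fold (limma adjusted p = 0.00178). Without the control tumour array of high Gapdh ratio the difference was 3.53 (adjusted p = 0.0125), with the mean of both probe sets it was 3.09 (0.00662), and the call held under each of the 18 alternative settings run. In HAI-1 deficient mice the same step was 1.83 ± 0.42, or 3.56-fold, which did not pass the threshold (limma adjusted p = 0.0557), although the groups did not overlap. It was 2.43 without the first and 1.23 without the second array of deficient tumours, and 1.11 with the mean of both probe sets. Within tumours the difference with HAI-1 loss was 0.61 ± 0.42, with an interval from -0.37 to 1.59, overlapping groups and no call (limma adjusted p = 0.784). It was 0.01 when the second array of deficient tumours, the highest Plat value of all, was left out, and 1.21 without the first.

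The second Plat probe set was dimmer, with log2 signals of 4.28 and 3.29 in control mucosa, 6.92 and 6.60 in HAI-1 deficient mucosa, 6.30 and 6.06 in control tumours, and 6.18 and 8.11 in HAI-1 deficient tumours. Control mucosa was again lowest on both arrays. Both lay under the filter value there, so its difference is a bound: at least 2.95-fold higher in HAI-1 deficient mucosa and at least 1.96-fold higher in control tumours. Unlike on the brighter probe set, the deficient mucosa lay above the control tumours.

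**Figure D1:**
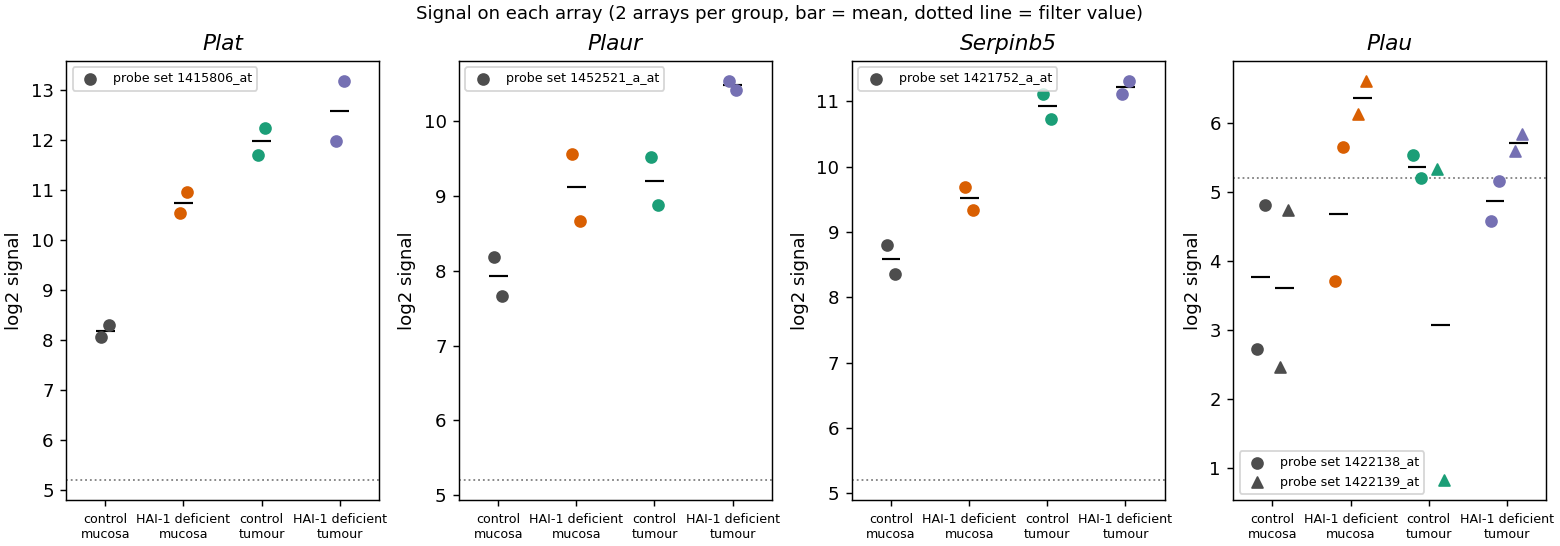
Log2 signal of each member on each of the 8 arrays, by group, with a bar at the mean of 2 arrays. For Plat, Plaur and Serpinb5 both control mucosa arrays lie under every other array on the tested probe set, from 8.05 to 8.30 for Plat, whereas the Plau values scatter around the filter value of 5.20.

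Plau, the urokinase gene, was near or under the filter value on most arrays. On the first probe set the log2 signal was 2.73 and 4.80 in control mucosa, 3.70 and 5.64 in HAI-1 deficient mucosa, 5.53 and 5.20 in control tumours, and 4.58 and 5.15 in HAI-1 deficient tumours. On the second it was 2.47 and 4.74, 6.12 and 6.60, 5.32 and 0.82, and 5.59 and 5.84 in the same order of groups. The first showed no group apart from the rest in mucosa, since deficient and control arrays overlapped. The second lay above the filter value on both arrays of deficient mucosa and under it on both of control mucosa, a difference of at least 2.23-fold. The control tumour arrays read 5.32 and 0.82 on the second, the latter on the array of high Gapdh ratio. With that spread no direction can be read for Plau in control tumours. When no filter was set, Plau on the second probe set differed by 2.76 ± 1.47 in mucosa on the log2 scale (limma adjusted p = 0.514). That SE pools the spread of all 4 groups, so the 0.82 in control tumours enters it. Without that array the difference in mucosa was also 2.76.

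Plaur, the urokinase receptor, had log2 signals of 8.18 and 7.67 in control mucosa, 9.56 and 8.66 in HAI-1 deficient mucosa, 9.51 and 8.88 in control tumours, and 10.53 and 10.42 in HAI-1 deficient tumours. Control mucosa was lowest and deficient tumours highest, with no overlap with any other group. Both control tumour arrays lay within the range of HAI-1 deficient mucosa, with means of 9.11 and 9.20.

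Plaur rose in control mice from mucosa to tumours by 1.27 ± 0.38 (log2, SE, n = 2 per group), or 2.42-fold (limma adjusted p = 0.0429). This call held in 7 of the 18 alternative settings, and was lost when arrays were quantile normalized (1.05, adjusted p = 0.0654) or the spike-in batch was a block (1.02, 0.0799). It also ended without either array of control mucosa (0.0749 and 0.185), of control tumours (0.196 and 0.0615) or of deficient tumours (0.0563 and 0.0571). In HAI-1 deficient mice the difference between tumours and mucosa was 1.36 ± 0.38, or 2.57-fold, without a call (limma adjusted p = 0.0876).

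With HAI-1 loss Plaur differed by a similar amount in both tissues, and neither difference was called. It was 1.19 ± 0.38, or 2.28-fold, in mucosa (limma adjusted p = 0.171, interval 0.30 to 2.08). In tumours it was 1.28 ± 0.38, or 2.43-fold (adjusted p = 0.779, unadjusted p = 0.011, interval 0.39 to 2.17), a difference that 1.65% of genes tested exceeded. Between arrays of low spike-in signal the differences were 1.39 in mucosa and 1.34 in tumours, and between those of high signal 0.99 in mucosa.

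Serpinb5, the maspin gene, had log2 signals of 8.81 and 8.36 in control mucosa, 9.69 and 9.34 in HAI-1 deficient mucosa, 11.12 and 10.73 in control tumours, and 11.11 and 11.31 in HAI-1 deficient tumours on its brightest probe set. Both tumour groups lay above both mucosa groups, and control and deficient tumours overlapped. Serpinb5 rose in control mice from mucosa to tumours by 2.34 ± 0.28 (log2, SE, n = 2 per group), or 5.06-fold (limma adjusted p = 0.0022), a call that held in all 18 alternative settings and stood at 2.53 (adjusted p = 0.0108) without the array of high Gapdh ratio. It rose in HAI-1 deficient mice by 1.69 ± 0.28, or 3.24-fold (limma adjusted p = 0.0309). That call ended without either array of control mucosa (0.0542 and 0.0543), of deficient mucosa (0.106 and 0.114) or of deficient tumours (0.0718 and 0.101), and when only these groups entered the fit (0.0735).

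In mucosa the deficient arrays lay above the control arrays for Serpinb5 by 0.93 ± 0.28, or 1.91-fold, without a call (limma adjusted p = 0.153, interval 0.27 to 1.60). In tumours the difference was 0.29 ± 0.28 (adjusted p = 0.813, interval -0.38 to 0.95).

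The other 3 Serpinb5 probe sets gave larger tumour differences. Their log2 signals in control mucosa were 7.12 and 6.17, 5.70 and 6.98, and 6.54 and 5.88, and in control tumours 10.63 and 10.51, 10.71 and 10.85, and 10.31 and 10.40. These are differences of 15.2-, 21.8- and 17.8-fold, against 5.06-fold on the brightest probe set, with no overlap on any of them. With the mean of all 4 the log2 difference was 3.72 in control mice (limma adjusted p = 0.00223) and 2.28 in HAI-1 deficient mice (0.0384).

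The 3 dimmer probe sets also had higher values in HAI-1 deficient than in control mucosa. The deficient arrays read 7.66 and 7.66, 7.27 and 7.78, and 6.58 and 7.49. The log2 differences were 1.02, 1.19 and 0.83, without overlap, as for 30.9% of genes tested in that direction. On the last of these sets the nearest arrays read 6.58 and 6.54. None was called with every probe set fitted on its own (limma adjusted p = 0.335, 0.403 and 0.548). In HAI-1 deficient tumours the 3 dimmer sets read 10.55 and 9.58, 10.61 and 9.16, and 10.43 and 8.98, against 11.11 and 11.31 on the brightest. The second array of that group was thus lower than the first on the 3 dimmer probe sets and higher on the brightest. For tumours with and without HAI-1 the dimmer sets gave log2 differences of -0.51, -0.89 and -0.65, the opposite sign to the brightest, so no direction can be given for Serpinb5 there. Which transcripts each probe set detects was not given.

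**Figure D2:**
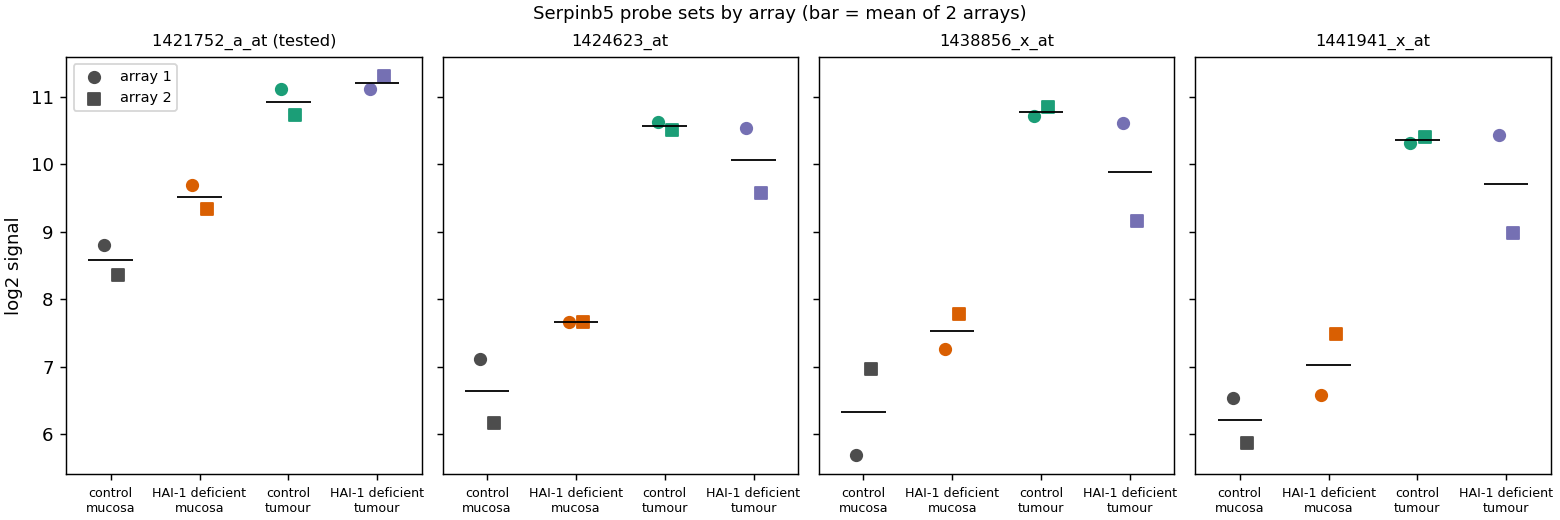
Log2 signal of the 4 Serpinb5 probe sets on each array, by group, circles for the first and squares for the second array, bars for means. All 4 read higher in both tumour groups than in both mucosa groups, and the second HAI-1 deficient tumour array reads 11.31 on the tested probe set but 9.58, 9.16 and 8.98 on the others.

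Read by comparison, the tested members were Plat, Plaur and Serpinb5, each above the filter value on all 8 arrays. With HAI-1 loss in mucosa 1 of the 3 was called higher, where 0.899% of all genes were called higher. The deficient arrays lay above the control arrays for all 3, as they did for 30.9% of genes tested. With HAI-1 loss in tumours none of the 3 was called, and 0% of genes were called in either direction by limma. At an unadjusted p under 0.05, 6.11% of genes passed, Plaur among them, and Plaur alone of the 3 had deficient arrays above both control arrays, as did 18.6% of genes.

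From mucosa to tumours in control mice all 3 were called higher, against 21.2% of all genes called higher and 7.64% called lower, and all 3 had groups that did not overlap, as did 45.3% of genes in that direction. In HAI-1 deficient mice 1 of the 3 was called higher, Serpinb5, against 2.45% of genes called higher and 1.75% lower. The groups did not overlap for all 3, as for 36.6% of genes in that direction. The share of higher calls among all calls in that comparison was 58.3% on the values as deposited and 47.8% after quantile normalization. The comparisons share arrays, so their values stand side by side and are not independent.

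The test of whether HAI-1 loss acted differently in tumours than in mucosa, the interaction term, called none of the 3 members and 0% of genes, with 9.23% of genes at an unadjusted p under 0.05. It was -1.96 ± 0.60 for Plat (limma adjusted p = 0.402, unadjusted p = 0.012, interval -3.35 to -0.57), and -1.36 or -2.56 without the first or the second array of deficient tumours. It was 0.09 ± 0.54 for Plaur (adjusted p = 0.974, interval -1.17 to 1.35) and -0.65 ± 0.40 for Serpinb5 (adjusted p = 0.678, interval -1.59 to 0.29), with -1.43 for the mean of the Serpinb5 probe sets. The interval for Plaur is wide enough to hold a more than 2-fold difference either way.

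Averaged over both tissues, a contrast added after the values were seen, HAI-1 loss gave 1.59 ± 0.30 for Plat (limma adjusted p = 0.11), 1.24 ± 0.27 for Plaur (0.132) and 0.61 ± 0.20 for Serpinb5 (0.219). None was called, with 0% of all genes called and 16.3% at an unadjusted p under 0.05.

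**Figure D3:**
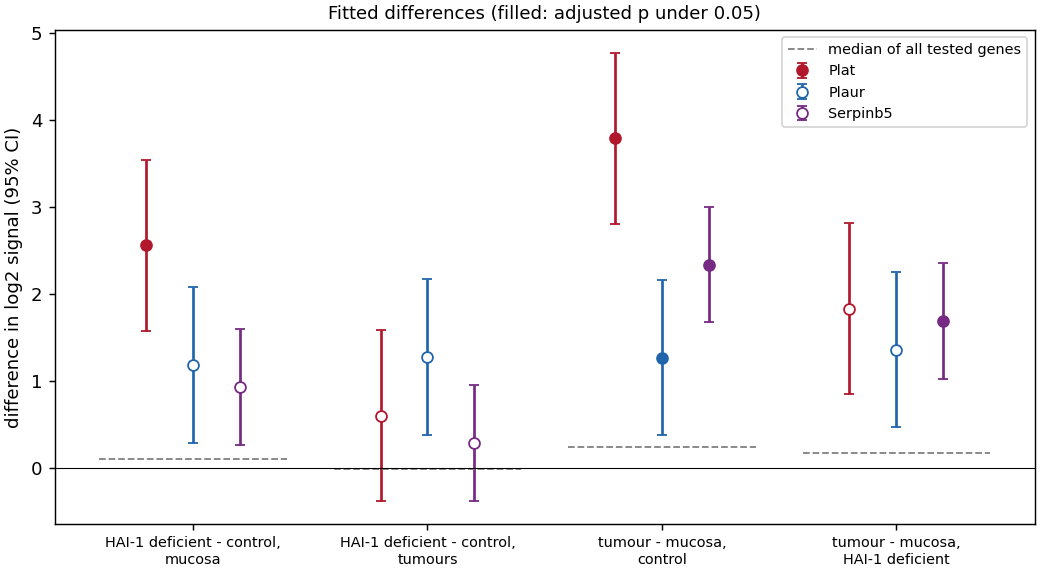
Fitted log2 differences of Plat, Plaur and Serpinb5 in the 4 comparisons, with 95% confidence intervals, filled where the adjusted p was under 0.05, and a dashed line at the median of all genes tested. All 3 are filled for tumours against mucosa in control mice, Plat alone for HAI-1 loss in mucosa and Serpinb5 alone for tumours against mucosa in HAI-1 deficient mice.

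The other genes of the plasminogen system on the list, 26 in all, cover the zymogen, its receptors, further inhibitors and the receptors that clear or bind the activators. Of these, 23 had a probe set and 14 were tested. HAI-1 loss called none of the 14 in mucosa or in tumours, with median log2 differences of 0.14 and 0.07 against 0.11 and -0.01 over all genes. From mucosa to tumours 4 rose and 1 fell in control mice, with 9 not called, and 2 rose and 1 fell in HAI-1 deficient mice, with 11 not called. Of all genes tested, 21.2% were called higher and 7.64% lower in control mice, and 2.45% and 1.75% in HAI-1 deficient mice. The median log2 differences of the list were 0.59 and 0.41, against 0.24 and 0.18 over all genes. Without the array of high Gapdh ratio 5 were called higher and 1 lower in control mice. Without the second array of deficient tumours none was called in HAI-1 deficient mice.

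Among receptors, Plgrkt, a membrane protein that binds plasminogen at the cell surface, had log2 signals of 12.17 and 12.19 in control mucosa, 12.02 and 11.73 in deficient mucosa, 10.13 and 10.39 in control tumours, and 10.51 and 10.47 in deficient tumours. Both tumour groups lay under both mucosa groups. Plgrkt fell by 1.92 on the log2 scale in control mice (SE 0.24, limma adjusted p = 0.00244) and by 1.39 in HAI-1 deficient mice (adjusted p = 0.0332). The call in deficient mice ended without either array of control mucosa (0.0569 and 0.0567), of deficient mucosa (0.138 and 0.098) or of deficient tumours (0.0802 and 0.1), with log2 differences of -1.53 to -1.24. Plasminogen receptors of another kind, Anxa2 and S100a10, which form the annexin A2 complex that binds plasminogen and tPA, differed by 0.10 and 0.11 in control mice without a call.

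Mrc2, a collagen receptor that associates with uPAR, rose in tumours, its mucosa signals being under the filter value. The rise was at least 3.29-fold in control mice and at least 2.89-fold in HAI-1 deficient mice. The limma fit on the values as deposited gave log2 differences of 2.51 (adjusted p = 0.00779) and 2.63 (0.0338). Leaving out either array of control mucosa (0.0546 and 0.0543), of deficient mucosa (0.127 and 0.0937) or of deficient tumours (0.093 and 0.0819) ended the call in deficient mice. Vldlr, an endocytic receptor that takes up complexes of activator and serpin, rose in control mice by 2.64 ± 0.46 (adjusted p = 0.00671), and by 1.5 with the mean of its probe sets (0.0227). Lrp1, the main receptor of that kind, differed by -0.48 without a call. Itgav and Itgb3, the chains of the vitronectin receptor, an integrin, rose in control mice by 1.68 ± 0.24 (adjusted p = 0.00349) and 1.91 ± 0.38 (0.0102). With the mean of all probe sets per gene the calls of both chains ended, at 0.66 (0.19) and 1.60 (0.0681). That of Itgb3 also ended without the first array of control mucosa (0.0566) or of control tumours (0.0545).

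Among inhibitors, A2m, alpha-2-macroglobulin, which traps plasmin and other proteases, had log2 signals of 6.36 and 6.99 in control mucosa, 6.69 and 7.51 in deficient mucosa, 6.66 and 8.52 in control tumours, and 10.11 and 11.23 in deficient tumours. Both arrays of deficient tumours lay above all others. A2m rose from mucosa to tumours in HAI-1 deficient mice by 3.57 ± 0.66 (limma adjusted p = 0.0367). Without either array of control mucosa (0.0574 and 0.0572), of deficient mucosa (0.15 and 0.103) or of deficient tumours (0.0682 and 0.118) it was no longer called. The difference between deficient and control tumours, 3.08, was not called (adjusted p = 0.779). Serpinf2, alpha-2-antiplasmin, differed by 0.01 and 0.47 between tumours and mucosa without a call. Plg, plasminogen itself, had a log2 signal of 3.19 to 5.01 over the 8 arrays and Serpinb2, plasminogen activator inhibitor type 2, 0.65 to 5.08, both under the filter value on every array and therefore not tested.

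**Figure D4:**
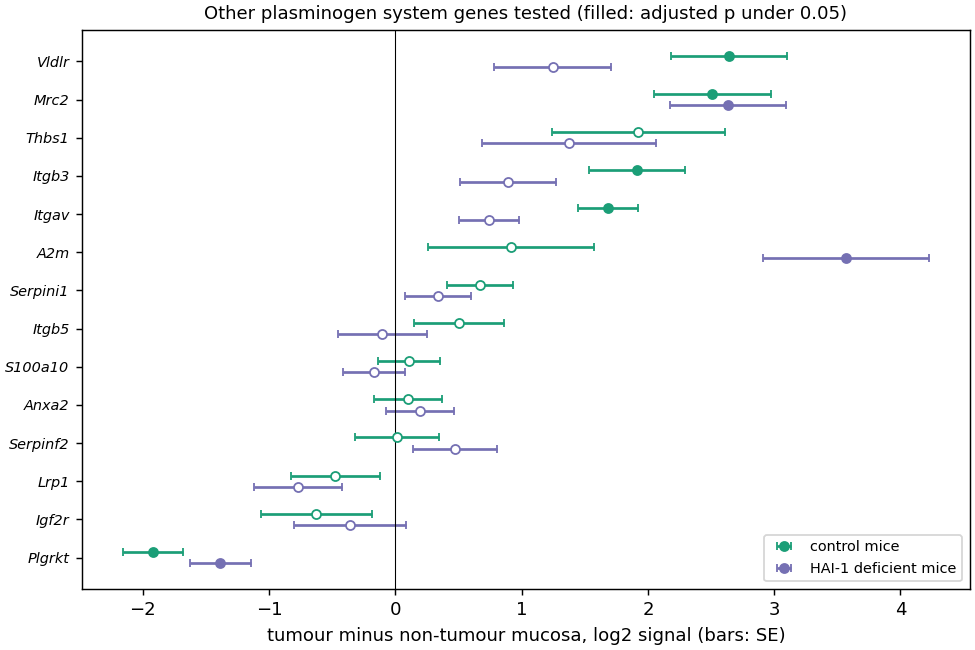
Log2 difference between tumours and non-tumour mucosa, with its SE, for the 14 other plasminogen system genes tested, in control and in HAI-1 deficient mice, filled where the adjusted p was under 0.05. Plgrkt is the only filled gene below 0 in either genotype, at -1.92 and -1.39.

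Transcription factors of the AP-1 family and TGF-beta are known regulators of Plau, Plaur and several serpins. All 12 genes of that list were tested. From mucosa to tumours in control mice 2 rose, 1 fell and 9 were not called, with a median log2 difference of 0.62. Of all genes tested, 21.2% were called higher and 7.64% lower in that comparison. Tgfbr2, a TGF-beta receptor chain, rose by 2.40 ± 0.33 (limma adjusted p = 0.00318) and Fosl1, the AP-1 subunit Fra-1, by 2.24 ± 0.54 (0.0199). Jun, another AP-1 subunit, fell by 1.28 on the log2 scale (SE 0.32, adjusted p = 0.0233). With the mean of all probe sets per gene these calls ended, at 1.13 (0.088), 1.0 (0.26) and -0.85 (0.107). Fosl1 was also not called without the first array of control mucosa or of control tumours (0.104 each), nor Jun without either array of control mucosa (0.0817 and 0.0905) or the control tumour array of high Gapdh ratio (0.123). No gene of the list was called with HAI-1 loss in mucosa or tumours, or between tumours and mucosa of deficient mice, with medians of 0.03, 0.11 and 0.34.

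Of 39 other serpins, all with a probe set, 18 were tested. In control mice 5 rose, 1 fell and 12 were not called from mucosa to tumours, with a median log2 difference of 0.63. In HAI-1 deficient mice 1 rose, with a median of 0.41. Of all genes tested, 21.2% were called higher and 7.64% lower in control mice, and 2.45% and 1.75% in HAI-1 deficient mice. None was called with HAI-1 loss, with medians of -0.02 in mucosa and -0.21 in tumours. Serpina3n, an acute-phase inhibitor, rose at least 33.4-fold in control mice, both mucosa arrays being under the filter value. The limma fit on the values as deposited gave a log2 difference of 7.10 there (adjusted p = 0.00281). In HAI-1 deficient mice Serpina3n rose by 5.55 ± 0.93 on the log2 scale (0.0309), where 1 of the 2 mucosa arrays was under the filter value. The call in deficient mice ended without either array of control mucosa (0.0546 and 0.0543) or of deficient tumours (0.0865 and 0.081), and without the second array of deficient mucosa (3.95, 0.0937), and the difference was 7.14 without the first. Serpinh1, a collagen chaperone, rose by 3.01 ± 0.39 (adjusted p = 0.00271), and Serping1, the inhibitor of complement C1 proteases, by 2.57 ± 0.40 (0.00461). Serpinf1, pigment epithelium-derived factor, rose by 2.63 ± 0.44 (0.00605) and Serpinb6b by 0.95 ± 0.29 (0.0458), a call that held in 4 of 18 alternative settings and in none that left out an array (0.0501 to 0.22). With the mean of probe sets Serpinf1 was at 1.23 (0.27). Serpina1c, an alpha-1-antitrypsin gene, fell by 2.41 on the log2 scale (adjusted p = 0.00385). Serpina1c, Serpina3n and Serpinb6b have near-identical copies, so which copy these probe sets read is uncertain.

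Markers of cell types are set beside the members, and some lists moved as the members did while others did not. The summed linear signal over each marker list is given for the 2 arrays of each group. In bulk tissue, fewer cells of a type and less RNA per cell cannot be told apart. Endothelial markers, 10 of 10 measured with 9 above the filter, summed to 708 and 775 in control mucosa, 1727 and 2499 in HAI-1 deficient mucosa, 2614 and 4044 in control tumours, and 2931 and 4847 in HAI-1 deficient tumours. They stood in the order of groups that Plat had, lowest in control mucosa and overlapping between the tumour groups. The smooth muscle sums, and the stratified and gastric epithelium sums given below, stood in that order too. Smooth muscle markers, 8 of 8, summed to 1318 and 1509, 3839 and 4829, 9807 and 15045, and 14227 and 14613 in the same order. With HAI-1 loss in mucosa 1 gene each of the endothelial and smooth muscle lists was called higher, Tek at 2.25 and Myl9 at 2.59. Among all genes 0.899% were called higher there. The medians of the endothelial and smooth muscle lists were 1.65 and 0.97. Without the control tumour array of high Gapdh ratio neither list had a call there. From mucosa to tumours in control mice 5 of 9 endothelial and 8 of 8 smooth muscle genes rose, against 21.2% of all genes. In HAI-1 deficient mice 0 of 9 and 2 of 8 did, against 2.45% of all genes. These shares of higher calls also stand beside the counts of the lists below. The part of these lists in the Plat result was not tested.

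Fibroblast markers, 10 of 10, summed to 6159 and 6414, 7064 and 9389, 31168 and 33579, and 22647 and 24425 in the 4 groups. In control mice 9 of the 10 rose and 1 fell in tumours, in HAI-1 deficient mice 4 rose, and HAI-1 loss called none in either tissue. Macrophage markers, 8 of 8, summed to 7546 and 7556, 6885 and 8302, 10132 and 12818, and 9604 and 10070, and 3 of 8 rose in control tumours. Neutrophil markers, 6 of 8 measured, summed to 217 and 354, 342 and 1521, 2485 and 4582, and 1164 and 1376, with 2 of 5 tested called higher in control tumours. Macrophage and neutrophil sums were lower in deficient than in control tumours, and no marker of either list was called for HAI-1 loss there. The list medians were -0.06 and -0.90. Leukocytes carry uPAR, and their part in the Plaur result was not tested.

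Markers of stratified and gastric epithelium, where maspin is known, summed to 1019 and 1021 in control mucosa, 2578 and 3439 in HAI-1 deficient mucosa, 3709 and 13533 in control tumours, and 10418 and 10673 in HAI-1 deficient tumours. As for Serpinb5, both tumour groups lay above both mucosa groups and the tumour groups overlapped. All 9 were measured and 8 tested, of which 3 rose in control tumours, among them Gkn1 at 3.91 and Tff1 at 2.45, gastric mucosal proteins, and 1 in HAI-1 deficient tumours, Tff1 at 2.56. No marker of any list was at the lowest value of the arrays, but some lay under the filter value. Of the 9 here, 3 and 4 did so on the arrays of control mucosa, 1 on each of deficient mucosa, and 1 or 2 on each tumour array. Under it were also 4 and 3 of 8 mast cell markers in deficient mucosa, and 3 and 4 of 6 neuron and glia markers in control mucosa. The part of these markers in the Serpinb5 result was not tested.

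Of the remaining lists, 1 of 9 epithelial markers rose in control tumours and none was called elsewhere. Enterocyte markers, 9 of 10 measured, summed to 205150 to 243889 in mucosa and 141931 to 183336 in tumours, with 4 of 9 lower in control tumours and 3 of 9 in HAI-1 deficient tumours. Mast cell markers, 8 of 8, summed to 2662 and 5670, 1341 and 1399, 45336 and 46499, and 6039 and 34256, with 6 of 7 tested called higher in control and 4 in HAI-1 deficient tumours. Enteric neuron and glia markers, 6 of 8 measured, summed to 183 to 567 on all arrays, with no calls.

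**Figure D5:**
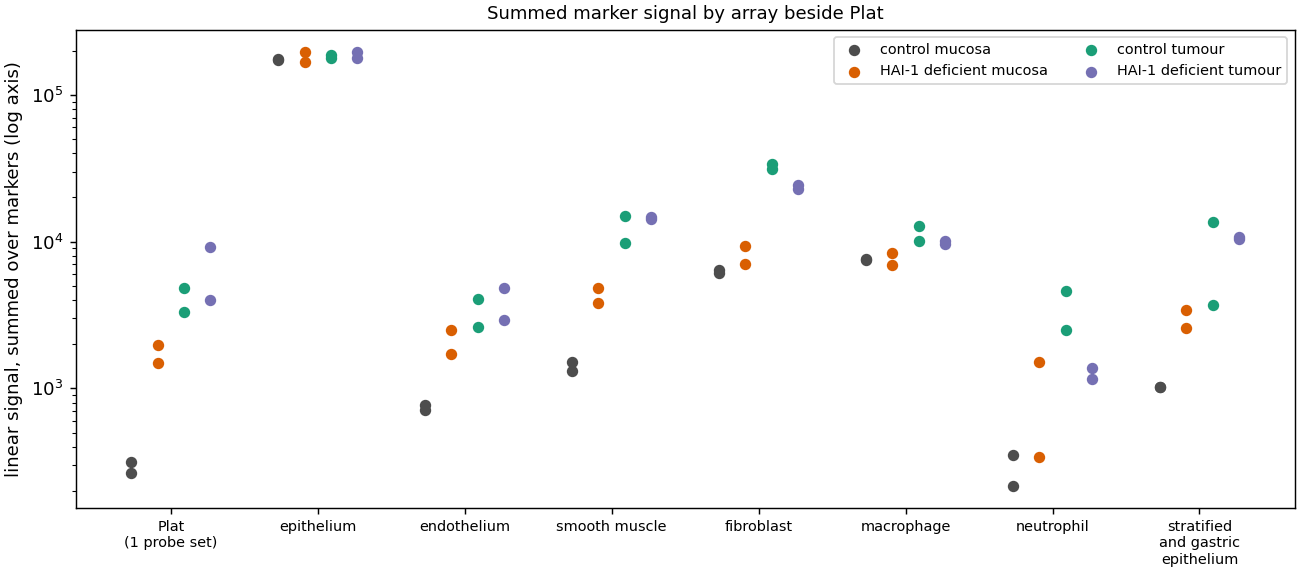
Linear signal of Plat and summed linear signal of marker lists on each array, on a log axis, coloured by group. Endothelial and smooth muscle sums are lowest in control mucosa, 708 to 775 and 1318 to 1509, as Plat is, while epithelial sums lie between 166233 and 195903 on all 8 arrays.

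Genes with patterns most like each member were taken as those with the smallest root mean square difference of log2 values over the 8 arrays after removing each gene's own mean. For Plat these were Lepr, the leptin receptor, at 0.25, Pdgfrl at 0.35 and Hebp2 at 0.36, where the median over all genes was 1.67. Lepr had log2 signals of 5.46 and 5.71 in control mucosa, 7.49 and 8.02 in deficient mucosa, 9.49 and 9.50 in control tumours, and 9.22 and 10.20 in deficient tumours, so that its tumour groups overlapped as those of Plat did. For Plaur they were Tnni2, Chn1 and Gas1, each at 0.29, against a median of 0.95. For Serpinb5, on its brightest probe set, they were Anxa5 at 0.15, Sting1 at 0.16 and Krt7, a simple epithelial keratin, at 0.16, against a median of 1.05. Each likeness is to the tested probe set of a member, from which the dimmer Plat and Serpinb5 probe sets differed as described above. The smallest of many differences lies under the median by construction.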

How the data were processed

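Total RNA, extracted with Trizol and a column kit, was labelled with biotin from 6 ug by the one-cycle protocol and hybridised to Affymetrix arrays, per the labels. The deposited values are log2 signals, 1 per probe set and array, with a lowest value of 0. The submitters' processing notes name MAS5 and RMA without version or role. The deposited table has a 2% trimmed mean linear signal of 500.003 to 500.004 on every array. The number of arrays limits precision.

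Gene names came from the platform annotation: 34958 probe sets had 1 gene symbol, 932 several and 9211 none, and 34754 matched the RefSeq table (GRCm38.p6) by Entrez ID. For each of 18194 genes the single-gene probe set of highest mean was taken, and 13119 genes with a mean log2 signal at or above the 40th percentile (5.20, or 36.8 linear) were tested. Values were not normalized again. limma 3.58.1 in R 4.3.3 fitted all 8 arrays with a mean per group (4 residual and 3.52 prior degrees of freedom), two-sided, called at a Benjamini-Hochberg adjusted p under 0.05. The fit was tested on simulated data. Where both arrays of a group lay under 5.20, the fold is given as a bound. For a bound every value under 5.20 was set to 5.20, while p-values are from the values as deposited.

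Members, gene lists and cell type markers were chosen with earlier results of these data known. Named were all members, Spint1, up to 6 called genes per list and comparison, a few direct partners, and the 3 genes most like each member. Lrp1, Anxa2 and S100a10, uncalled, were chosen after their values were seen. The labels do not say whether the 2 replicate numbers pair the arrays. Correlations of same-numbered deviations over genes were -0.138 to 0.220, and no block entered the main fit. With 2 arrays per group these correlations cannot show whether mice or processing were shared. Alternatives covered normalization, filter, probe set choice, low signals, trend, groups fitted, replicate and spike-in blocks, and each array left out.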

Additional observations from a re-analysis of the deposited data

How the results depend on the processing

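Plat was called with HAI-1 loss in mucosa in 8 of 18 alternative settings, with adjusted p of 0.0137 to 0.196. The count of members called there, 1, became 0 with quantile normalization, no filter, the mean of probe sets or every probe set on its own, and was 0 to 1 with single arrays left out. The count of all genes called, 138, was 46 with quantile normalization, 0 without a filter, 331 with the filter at the 60th percentile, 24 with the mean of probe sets, 19 with every probe set, 279 with low values raised to the filter value, 370 with a variance trend, 46 with only the groups compared, and 0 to 219 with single arrays left out. With the replicate number as a block it was 84, and Plat stayed called (0.0488). For HAI-1 loss in tumours 0 members were called in every setting, with 0 to 7 genes when single arrays were left out, 7 without the first control tumour array. For tumours against mucosa in control mice 2 to 3 members were called in all settings, and the 3777 genes became 2464 without a filter and 2000 to 3779 with single arrays left out. In HAI-1 deficient mice the 1 member became 0 without a filter, with every probe set or with only the groups compared, 2 with the 60th percentile, raised values, the trend or the spike-in block, and 0 to 1 with single arrays left out. Plat was the added call. The replicate block also gave 2 members there (Plat, adjusted p = 0.0422) and 341 genes, and changed no other member's call. The 551 genes called there became 0 without a filter or with only the groups compared, 959 at the 60th percentile, 205 with the mean of probe sets, 158 with every probe set, 1000 with raised values, 972 with the trend, and 0 to 384 with single arrays left out. The interaction called 0 members and 0 genes throughout. Averaged over tissues, members called were 1 with the trend and 0 to 1 with single arrays left out, where Plat was called without the first deficient tumour array (1.88, adjusted p = 0.0269). Genes called were 31 at the 60th percentile, 1 with the mean of probe sets, with every probe set and with the replicate block, 33 with raised values, 116 with the trend, and 0 to 230 with single arrays left out. These averaged alternatives, and list counts without doubted arrays, were chosen after seeing the data. Signs turned for Serpinb5 with HAI-1 loss in tumours with the mean of probe sets (-0.44), for Spint1 between control tumours and mucosa with quantile normalization (0.10) and single arrays left out (-0.18 to 0.12), and for the Plaur interaction with single arrays left out (-0.36 to 0.54). The cause was not tested.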
